A study of Mus musculus with 10 samples.

Results

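The arrays described here compared RNA of the heart ventricle of 5 untreated mice with a pooled tissue reference. They are 5 of the 10 arrays of a series that also holds 5 arrays of mice given aldosterone, and they were chosen by their label of no treatment. All 5 came from male mice, each labelled as a separate animal, with the same duration label of 7 days that the treated mice carry; the sources used here give neither strain nor age. The titles of all 10 arrays carry the word Ctrl, those of the treated mice included, so this word alone does not mark an untreated mouse. The labels do not say what it stands for. The numbered controls below are the 5 untreated mice. Total RNA of the ventricle was labelled with Cy5. The reference on every array was total RNA pooled from liver, brain, heart, kidney and spleen and labelled with Cy3. The share of each organ in the pool is likewise not given.

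The ventricle wall is built of cardiomyocytes, striated muscle cells that contract with each heartbeat, among a larger number of endothelial cells, fibroblasts, pericytes and resident macrophages. Contraction starts when calcium entering through the L-type channel opens the ryanodine receptor of the sarcoplasmic reticulum. The released calcium binds troponin C and lets myosin pull on actin, and the SERCA pump then returns it to the store. The energy comes mainly from mitochondria that burn fatty acids. The pooled organs are each known for other tasks, such as secretion of plasma proteins by the liver, transport by the kidney tubule, synaptic transmission in the brain, and the B cell follicles of the spleen.

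The measured quantity was the log2 ratio of Cy5 over Cy3, so 1 is a doubling in ventricle over the pool and -1 the reverse. The pool itself contains heart RNA, which limits the ratio of genes made in heart. If that RNA matched these ventricles, a gene of heart alone could exceed the pool only by the inverse of the heart's share. Whether it matched them was not tested. The pool is a single labelled RNA, so the tests measure the spread between the 5 ventricles and arrays and leave out the pool's own. No dye swap is labelled, so a dye effect of a probe and a difference of source cannot be told apart. Whether the RNA came from more cells of a type or from more RNA per cell cannot be told apart either.

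Of 39429 probes, between 64.3% and 70.9% were well above background in Cy5 on the 5 arrays, and between 60.6% and 64.8% in Cy3. From 279 to 369 probes were saturated in Cy5, and from 29 to 36 in Cy3. The ratios of any pair of arrays correlated between 0.964 and 0.984 over genes measured in both channels, a description over genes that share the same pool. Controls 1 and 2 shared a slide, and the other 3 lay on slides of their own. Over the 17927 genes or transcripts above background in both channels on all arrays, the median SD between arrays was 0.149 on the log2 scale and the 95th percentile 0.474. Controls 2 and 5 went together: both lay above, or both below, all of the other 3 arrays in 38.6% of these genes, against 10.4% to 30.4% for the other 9 pairs. No label separates them, and the counts of calls given next differed little without them, at 6011 higher and 4627 lower.

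After 1 probe had been kept per gene, 32585 genes or transcripts remained, 20144 of them with a symbol, and 22265 were bright enough in at least 1 channel to be tested. A gene was called higher or lower in ventricle where limma's test against 0, adjusted by Benjamini-Hochberg over all genes tested, gave a p under 0.05 and the mean ratio was at least 1 from 0. It was called shared where the 95% interval of its mean lay wholly within 1 of 0 and it was above background in both channels on all arrays. By these rules 6071 genes, or 27.3% of those tested, were higher in ventricle, 4593 or 20.6% were lower, and 8962 or 40.3% were shared. The median ratio of all genes tested was 0.33.

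The directions were unequal in size. At a ratio of at least 4 on the log2 scale there were 61 genes higher and 1180 lower, and at 6 or beyond 1 and 243. Brightness moved the calls less. Among genes above background in both channels, the share called higher went from 25.5% in the dimmest of 4 equal groups to 23.1% in the brightest, and the share called lower from 18.5% to 11.9%. The calls did depend on how the signals were processed and on where the zero of the ratio was set. The deposited ratio gave 56.9% of calls on the ventricle side. The scanner signals after normexp correction and loess gave 31.6%, the same signals without background correction 31.4%, and normexp with median centring 69.1%. Centring each array on the median of all genes gave 42.9%, and a zero taken from the spiked-in RNAs gave 77.4%. The median of all genes tested, 0.33 as deposited, stood at 0.0097 after normexp and loess and at 1.07 with the spike-in zero. With normexp and median centring it stayed near the deposited value, at 0.36, while the lower genes went from 4593 to 2384. No gene was called on opposite sides by the deposited ratio and by any of these 5 settings, and 1626 of 6068 higher genes and 3318 of 4589 lower genes kept their call after normexp and loess. Changes in the probes used did give opposite calls. There were 12 with the mean of all probes of a gene, 2 with saturated probes left out and 1 with no filter on dim probes. Of 1747 called genes with over 1 probe tested, 147 had a probe of opposite sign. Of 187 named genes called higher or lower, 106 had a fold more than 1.5 times smaller after normexp and loess. For 0 genes it was more than 1.5 times larger, and 0 changed sign. Beside each fold printed below that became smaller by this much, the fold after normexp and loess is given. Ratios printed on the log2 scale alone can shrink as much, and the later value is given for only some of them. The sign of each list median below held under every setting computed, except for the conduction, thymus and ribosomal protein lists. The sizes moved more, with the kidney median between -4.96 and -2.54, the adipocyte median between -2.70 and -0.80, the erythroid median between -3.09 and -0.66 and that of organs outside the pool between -3.02 and -0.43.

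**Figure D1:**
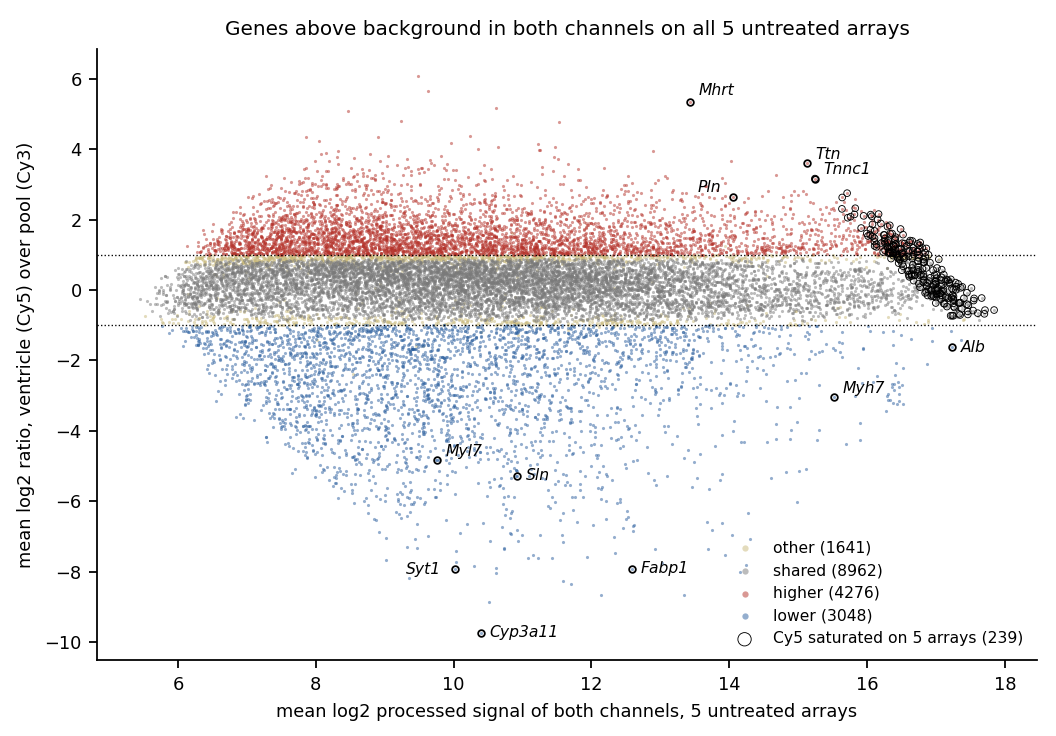
Mean log2 ratio of ventricle over pool (vertical axis) against the mean log2 processed signal of both channels (horizontal axis) for the 17927 genes above background in both channels on all 5 untreated arrays, coloured by call, with dotted lines at 1 and -1 and open circles for the 239 genes whose Cy5 spot was saturated on all 5 arrays. Genes reach further below the lines than above, to -9.73 at Cyp3a11, and the saturated genes lie along a falling edge at the bright end.

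Genes were then read by lists. The counts of calls in each list stand against 27.3% higher, 20.6% lower and 40.3% shared among all genes tested. Over the lists for sarcomere, calcium handling, cardiac transcription factors and energy metabolism, 138 of 161 genes tested were higher in ventricle, 1 was lower and 11 were shared, with a median of 1.79. Over the lists for liver, kidney, neurons, glia and spleen, 122 of 130 were lower, 1 was higher and 6 were shared, with a median of -4.41. Over ribosomal protein and proteasome genes, 50 of 55 were shared, with a median of 0.08.

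**Figure D2:**
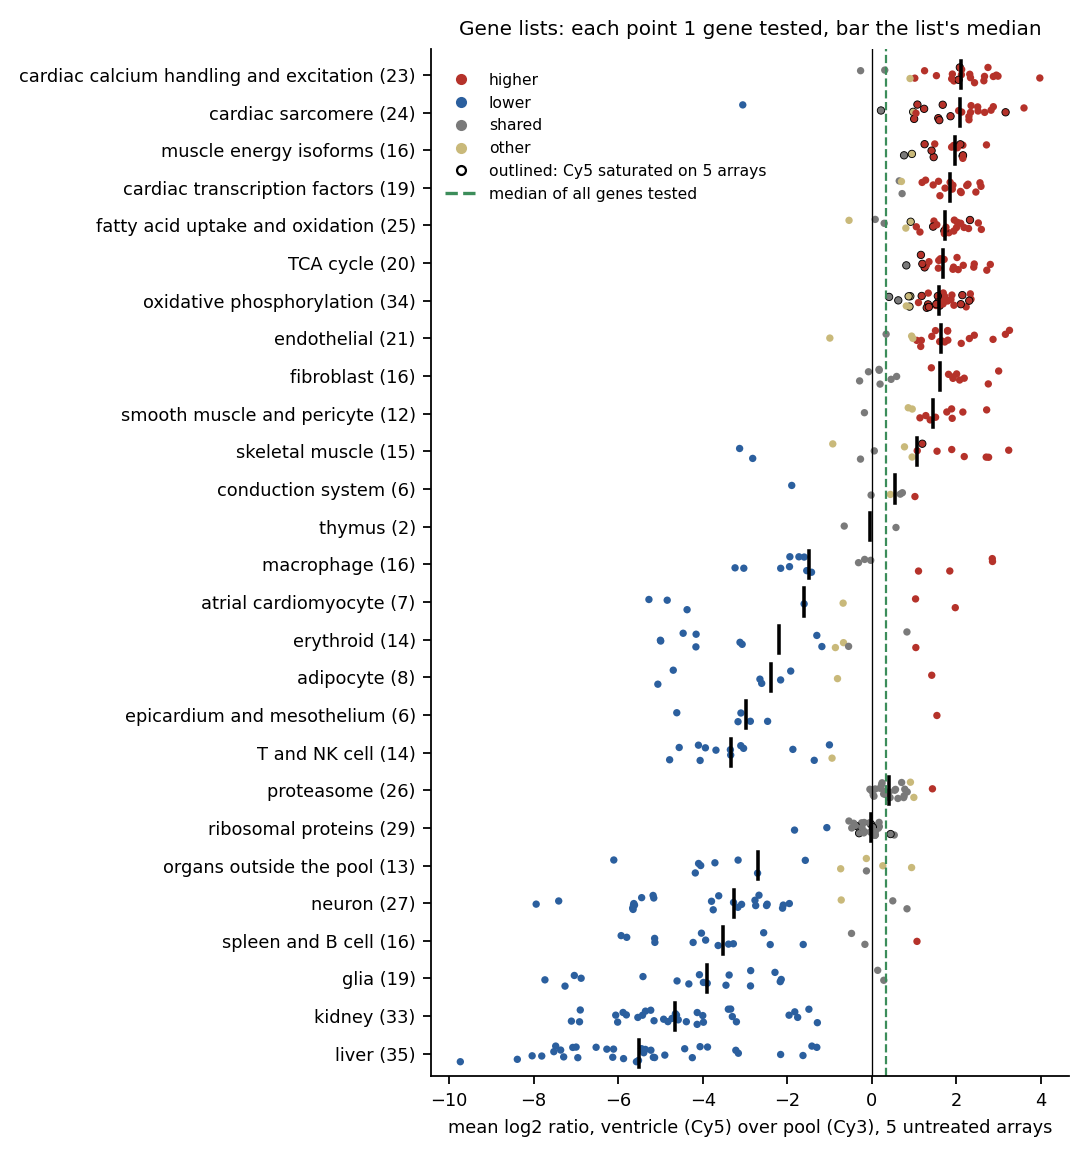
Mean log2 ratio over the 5 untreated arrays for each tested gene of 27 lists (number tested in brackets), coloured by call, with a black bar at each list's median and a dashed line at the median of all genes, 0.33. The heart muscle and energy lists have medians between 1.59 and 2.12, and the liver and kidney lists lie at -5.52 and -4.65 with no member above -1.

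Genes of the contractile filaments were mostly higher in ventricle. Of 24 sarcomere genes tested, 21 were higher, 1 was shared, 1 was lower and 1 missed both rules, with a median ratio of 2.09. Ttn, the giant spring protein titin that spans each sarcomere from its edge to its middle, read 3.58, 3.59, 3.45, 3.71 and 3.66 in controls 1 to 5 (adjusted p = 5.53e-08, limma). Its Cy5 spot was saturated on 3 of the 5 arrays, so these values and their spread are only approximate. Tnnc1, the calcium sensor of the thin filament, read 3.11, 3.22, 3.04, 3.22 and 3.22, and since its Cy5 spot was saturated on all arrays it was at least 8.06-fold higher. Csrp3, a LIM-domain protein that senses stretch at the Z-disc, stood at 2.82 ± 0.11 (SD, n = 5), and Nebl, the Z-disc anchor nebulette, at 2.87 ± 0.26 (SD, n = 5), with its pool signal above background on 3 of 5 arrays. After normexp and loess Nebl stood at 0.70, under the threshold.

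The brightest filament genes were saturated in Cy5, and no fold is read from their ratio. Bounds that allow for it are based on normexp and loess values of each channel and are written here as at least so many fold; the saturated spot counts at its recorded value. The bound given is the smaller of the values with local backgrounds as recorded and with stray ones replaced by the array's median. The bounds were 3.03-fold for Mybpc3, the myosin-binding protein C of the thick filament, 2.57-fold for Tnni3 and 2.34-fold for Tnnt2, the inhibitory and tropomyosin-binding troponins. They were 1.82-fold for Myl2, the ventricular regulatory light chain, and 1.62-fold for Myh6, the fast adult heavy chain. After normexp and loess Myl2, Myh6 and Tpm1, a tropomyosin, fell under the threshold, to 0.87, 0.70 and 0.61. A second, unsaturated Myh6 probe gave 2.86 where the saturated one gave 1.08. Actc1, the cardiac actin, was saturated too and read 0.22, within the shared range. Over the heart muscle and energy lists together, the 45 genes saturated on all arrays had a median of 1.41 and the 104 never saturated had a median of 1.94.

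The exception was Myh7, the slow heavy chain of the fetal ventricle and of slow skeletal muscle. It read -3.49, -3.00, -3.87, -3.18 and -1.72 in controls 1 to 5, or 8.29-fold below the pool (adjusted p = 1.06e-04). All 5 mice were below 0, and control 5 was the least low by more than 1. Mhrt, a noncoding RNA transcribed antisense within the Myh7 locus, had the highest ratio of all genes with a symbol that were above background in both channels, at 5.36, 5.49, 4.89, 5.57 and 5.42, or 40.7-fold.

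The upstream sequence of a few of these genes is shown because their promoters are the textbook sites at which muscle transcription factors bind. RefSeq windows of 250 bases before the gene start were at hand for 27025 mouse genes and 22 of the 25 sarcomere genes of the list. The sarcomere member of highest ratio with a single listed start is given for the MEF2 box, the CArG box bound by SRF, and the CATTCC motif bound by TEAD factors. Myl7 and Cyp3a11 are given beside them and were also chosen for holding a motif. Myl7, an atrial light chain, was the atrial gene of lowest ratio among those with a CArG box and a single listed start. Cyp3a11, the liver gene of lowest ratio, was chosen in the same way for TATAAA. Each is written 5′ to 3′ in the direction of the gene on GRCm38.p6, in lower case with motif matches on either strand in capitals.
Ttn, chr2:76982548-76982797, minus strand: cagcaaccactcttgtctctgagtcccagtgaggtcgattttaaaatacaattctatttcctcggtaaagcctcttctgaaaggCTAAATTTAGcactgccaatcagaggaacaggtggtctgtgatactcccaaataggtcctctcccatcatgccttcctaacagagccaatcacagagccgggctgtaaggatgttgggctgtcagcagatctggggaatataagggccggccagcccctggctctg
Myom1, chr17:71019307-71019556, plus strand: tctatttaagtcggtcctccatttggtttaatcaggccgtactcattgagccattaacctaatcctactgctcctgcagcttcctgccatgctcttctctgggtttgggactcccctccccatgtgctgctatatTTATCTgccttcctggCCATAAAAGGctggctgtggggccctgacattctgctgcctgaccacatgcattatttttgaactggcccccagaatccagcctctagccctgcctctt
Tnnc1, chr14:31208062-31208311, plus strand: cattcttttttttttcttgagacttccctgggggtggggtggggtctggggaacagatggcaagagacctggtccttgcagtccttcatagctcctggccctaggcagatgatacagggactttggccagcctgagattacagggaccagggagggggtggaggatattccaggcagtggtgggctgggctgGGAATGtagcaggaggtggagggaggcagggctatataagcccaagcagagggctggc
Myl7, chr11:5898783-5899032, minus strand: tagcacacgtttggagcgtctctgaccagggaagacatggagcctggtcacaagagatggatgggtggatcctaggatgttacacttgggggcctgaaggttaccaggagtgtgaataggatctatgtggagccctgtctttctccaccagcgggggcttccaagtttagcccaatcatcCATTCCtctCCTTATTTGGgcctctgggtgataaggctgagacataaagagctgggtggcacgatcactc
Cyp3a11, chr5:145879855-145880104, minus strand: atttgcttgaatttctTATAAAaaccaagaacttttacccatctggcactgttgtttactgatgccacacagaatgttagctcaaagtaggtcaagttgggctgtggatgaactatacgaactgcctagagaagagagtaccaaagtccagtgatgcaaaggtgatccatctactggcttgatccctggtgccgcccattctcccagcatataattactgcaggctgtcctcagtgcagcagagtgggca

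The capitals mark a MEF2 box in Ttn that begins 166 bases before the start, a CArG box in Myom1 from 99 bases before it with AGATAA, the GATA factor motif, at 115 bases, and CATTCC in Tnnc1 at 58 bases. Myl7, with a ratio of -4.84, holds the CArG box for which it was chosen at 61 bases, and CATTCC at 70 bases. Cyp3a11 holds the TATAAA for which it was chosen at 234 bases. A CArG box lay in the window of 5 of the 22 sarcomere genes, against 1.62% of all genes with a window, and a MEF2 box in 3, against 3.42%. AGATAA lay in 8 of 22, against 11.4%, and CATTCC in 8 of 22, against 14.4%. The TCA cycle list had a CArG box or a MEF2 box in 0 of 17 windows, and so did the oxidative phosphorylation list in 0 of 25 and the fatty acid list in 0 of 21. The calcium handling list had a CArG box in 0 of 16 windows and a MEF2 box in 1, and the liver list had them in 1 and 2 of 28. At the shares of all genes, lists this small would hold few or none, so no contrast with the sarcomere list is read from these counts. TATAAA lay in 8 of 28 liver windows and in 14.3% of all. MEF2 boxes can contain TATAAA, and 209 of 959 windows with the first had an overlapping match of the second. A match is a description of these letters only.

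Genes that move calcium and carry the action potential were also higher. Of 23 tested, 20 were higher, 2 were shared and 0 were lower, with a median of 2.12. Trdn, which ties calsequestrin to the release channel, read 4.03, 4.07, 3.71, 4.03 and 4.04 in controls 1 to 5, or 15.7-fold above the pool (adjusted p = 7.77e-08, limma), and 8.66-fold after normexp and loess, with control 3 the lowest. Jph2, the junctophilin that holds the reticulum against the T-tubule, read 2.86, 2.90, 2.59, 3.16 and 3.40, or 7.91-fold, and 2.65-fold after normexp and loess. Kcna5, a repolarising potassium channel, stood at 2.87 ± 0.13 (SD, n = 5), and at 1.28 after normexp and loess, and Srl, the reticulum protein sarcalumenin, at 2.94 ± 0.16 (SD, n = 5).

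The core of the release and reuptake cycle was above the pool on every array. Ryr2, the release channel, read 1.65, 2.76, 1.62, 2.00 and 2.57 in controls 1 to 5; controls 2 and 5 were the highest. Casq2, the calcium buffer of the store, stood at 2.75 ± 0.14 (SD, n = 5). Slc8a1, the sodium-calcium exchanger, stood at 2.43 ± 0.27 (SD, n = 5), and Cacna1c, the pore of the L-type channel, at 2.12 ± 0.23 (SD, n = 5) with its pool signal above background on 1 array only. Among the members that did not follow were Gja1, the gap junction protein connexin 43, at 0.90 ± 0.57 (SD, n = 5), and Kcnd2 at 0.31 ± 0.12 (SD, n = 5). Gja1 read 0.52, 1.42, 0.55, 0.41 and 1.61 in controls 1 to 5, again highest in controls 2 and 5.

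The transcription factors that set cardiac identity were higher in 16 of 19 tested genes, with 2 shared, 0 lower and a median of 1.85. Irx4, a ventricle-restricted homeobox factor, read 2.52, 2.82, 2.37, 2.48 and 2.72 in controls 1 to 5, or 5.99-fold (adjusted p = 6.12e-07, limma), and 3.36-fold after normexp and loess. Hand2 stood at 2.56 ± 0.32 (SD, n = 5), Nkx2-5 at 2.27 ± 0.16 (SD, n = 5), Tbx20 at 2.24 ± 0.04 (SD, n = 5), Tbx5 at 2.11 ± 0.20 (SD, n = 5) and Gata4 at 1.85 ± 0.07 (SD, n = 5). Mef2d was higher at 1.73 and Mef2a at 1.27, whereas Mef2c was shared at 0.72. Hand1, which acts in the embryonic left ventricle, was not well above background in either channel on any array and was not tested.

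Genes of energy metabolism were mostly higher in ventricle. Of 25 genes of fatty acid uptake and oxidation, 20 were higher, 2 were shared and 0 were lower, with a median of 1.73. Of 20 TCA cycle and pyruvate dehydrogenase genes, 19 were higher and 1 was shared, with a median of 1.68. Of 34 oxidative phosphorylation genes, 28 were higher, 2 were shared and 4 missed both rules, with a median of 1.59.

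Within fatty acid use, Hadhb, the beta subunit of the trifunctional protein of beta-oxidation, read 2.50, 2.82, 2.31, 2.58 and 2.73 in controls 1 to 5, with a saturated spot on 4 arrays. Lpl, the lipase that frees fatty acids from blood lipoproteins, was at least 4.27-fold higher. Acadl, the long-chain acyl-CoA dehydrogenase, stood at 2.29 ± 0.20 (SD, n = 5), with control 2 the highest at 2.64. Not all members were higher: Ppara, the fatty acid receptor that drives these genes, was shared at 0.08 ± 0.23 (SD, n = 5). Pdk4, the kinase that shuts off pyruvate dehydrogenase in fasting, was shared at 0.29 ± 0.65 (SD, n = 5), and Ucp3 stood at -0.54 ± 0.56 (SD, n = 5). Like Ucp3, Mlycd at 0.80 and Etfb at 0.92 missed both rules, and the Etfb spot was saturated in Cy5 on all arrays.

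The TCA cycle showed its largest ratios in subunits. Sucla2, the ATP-forming subunit of succinyl-CoA synthetase, read 2.72, 2.97, 2.60, 2.84 and 2.89 in controls 1 to 5, or 6.97-fold (adjusted p = 2.32e-07, limma). Idh3b and Idh3a, subunits of the NAD-linked isocitrate dehydrogenase, stood at 2.72 ± 0.22 (SD, n = 5) and 2.41 ± 0.13 (SD, n = 5). Mdh2, malate dehydrogenase, was the shared member at 0.82 and was saturated on all arrays. In the respiratory chain, Ndufs1 of complex I stood at 2.35 ± 0.16 (SD, n = 5). Of these 34 genes, 16 were saturated on all arrays, with a median of 1.34, and the 14 never saturated had a median of 1.70.

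In several isoform families, members with the same task lay on opposite sides of 0. In creatine kinase, which shuttles high-energy phosphate, the muscle form Ckm read 1.79, 2.31, 1.76, 2.08 and 2.05 in controls 1 to 5 and the brain form Ckb read -2.37, -2.30, -2.47, -2.31 and -2.23. The values of the 2 forms did not overlap. Ckmt2, the mitochondrial form of striated muscle, was at least 3.72-fold higher, and Ckmt1, the form of brain and gut, stood at -1.05 ± 0.11 (SD, n = 5). With the spike-in zero Ckmt1 moved to -0.31.

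For carnitine palmitoyltransferase, the gate of fatty acid entry into mitochondria, muscle Cpt1b read 1.90, 2.18, 1.76, 1.93 and 1.99, or 3.87-fold above the pool. Liver Cpt1a read -1.99, -1.99, -2.09, -2.04 and -2.04, or 4.08-fold below. Of the fatty acid binding proteins, the muscle form Fabp3 was at least 2.47-fold higher and Fabp4, of capillary endothelium and fat, read 3.10, 3.42, 2.99, 3.39 and 3.38. The liver form Fabp1 read -7.86, -7.91, -8.05, -8.08 and -7.72, or 243-fold lower and 156-fold after normexp and loess, and the brain form Fabp7 stood at -4.84 ± 0.16 (SD, n = 5). The skin and brain form Fabp5 was shared at 0.04 ± 0.27 (SD, n = 5).

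Glucose handling followed the same lines. The insulin-dependent transporter Slc2a4 read 2.55, 2.81, 2.47, 2.82 and 2.91 in controls 1 to 5 and the liver transporter Slc2a2 read -7.14, -8.27, -6.92, -7.32 and -7.90, with its ventricle signal above background on 2 of 5 arrays. The widely expressed Slc2a1 was shared at -0.83 ± 0.14 (SD, n = 5), and the neuronal Slc2a3 stood at -2.19 ± 0.17 (SD, n = 5). Among the hexokinases, which trap glucose in the cell, Hk2 stood at 2.46 ± 0.23 (SD, n = 5) and Hk1 was shared at 0.13 ± 0.28 (SD, n = 5). Further along glycolysis, the muscle enolase Eno3 was at least 3.73-fold higher and the neuronal Eno2 stood at -2.79 ± 0.15 (SD, n = 5). The brain aldolase Aldoc stood at -4.33 ± 0.09 (SD, n = 5), and the muscle form Aldoa, saturated on all arrays, was within the shared range at 0.21. Muscle glycogen phosphorylase Pygm stood at 1.89 ± 0.15 (SD, n = 5) and the liver form Pygl read -2.23, -3.75, -2.22, -2.28 and -2.13, with control 2 the lowest.

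**Figure D3:**
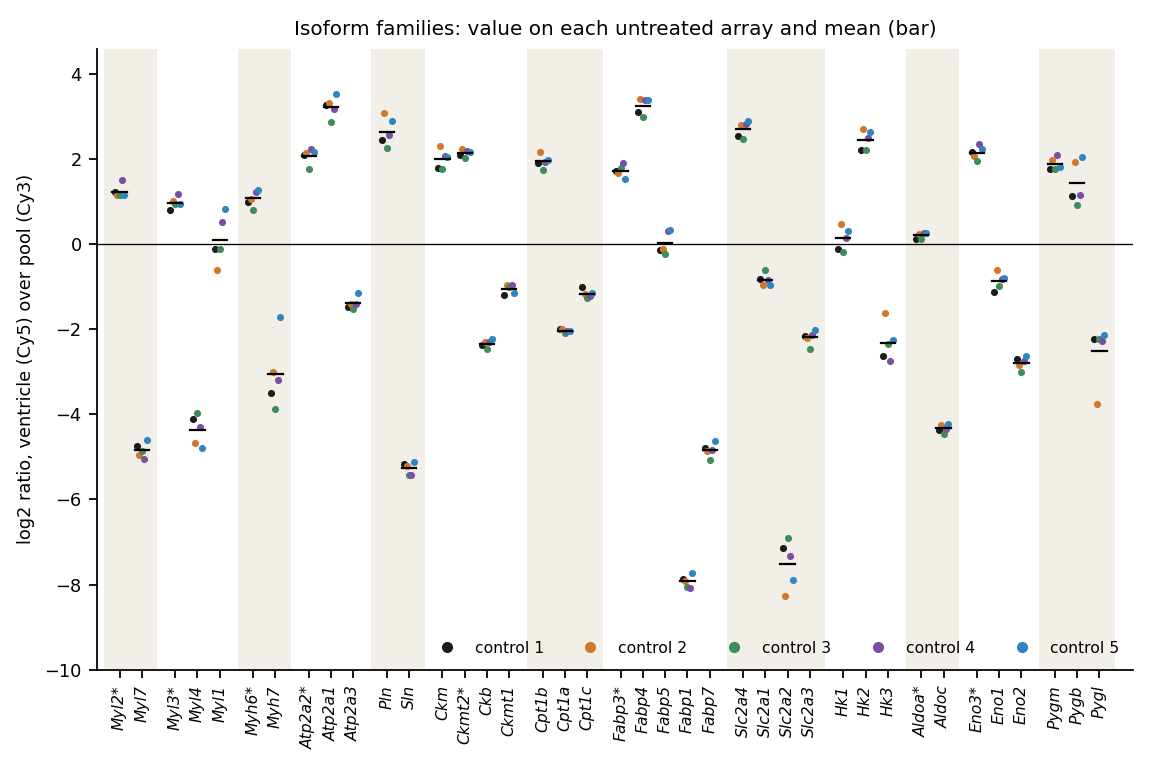
Log2 ratio of ventricle over pool on each of the 5 untreated arrays (points, 1 colour per mouse) and their mean (bar) for 39 of the 41 tested members of 13 isoform families, shaded in turn; an asterisk marks a gene saturated in Cy5 on all arrays. Within the light chain, creatine kinase, palmitoyltransferase and glucose transporter families the members lie on both sides of 0, with Fabp1 and Slc2a2 at -7.93 and -7.51.

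Some subunits of cytochrome c oxidase have a form of heart and muscle and a form of other tissues. The heart form Cox8b, saturated on all arrays, read 2.13, 2.20, 1.77, 2.23 and 2.13 and the other form Cox8a read -0.70, -0.24, -0.75, -0.56 and -0.58. Cox7a1 was at least 2.22-fold higher, and Cox7a2 was higher as well at 1.20 ± 0.12 (SD, n = 5), though it stood at 0.91 after normexp and loess. Cox6a2 and Cox6a1 stood at 0.76 and -0.76, the first saturated in Cy5 and the second in Cy3 on all arrays. The nucleotide carriers of the inner membrane, Slc25a4 of muscle and Slc25a5 of dividing cells, lay on opposite sides: the first was at least 2.06-fold higher and the second was shared at -0.61 ± 0.34 (SD, n = 5).

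The ventricle label was checked against atrial genes, which a dissection that keeps the upper chambers would carry. Of 7 atrial genes tested, 4 were lower, 2 were higher and 1 missed both rules, with a median of -1.60. Among all genes tested, 20.6% were lower and 27.3% higher. Sln, the atrial inhibitor of the calcium pump, read -5.18, -5.21, -5.42, -5.43 and -5.13 in controls 1 to 5, or 38.6-fold below the pool (adjusted p = 3.68e-08, limma). Pln, its ventricular counterpart, read 2.44, 3.08, 2.25, 2.58 and 2.89. The atrial inhibitor was below 0 and the ventricular one above 0 on every array. Myl7, the atrial regulatory light chain, read -4.73, -4.96, -4.86, -5.06 and -4.59, or 28.6-fold below, and 16.1-fold after normexp and loess. Myl4, the atrial essential light chain, read -4.11, -4.67, -3.96, -4.30 and -4.80, or 20.7-fold below. The spread between the 5 mice was small against these distances. Signals of Sln, Myl7 and Myl4 were well above background in Cy5 on all 5 arrays. Nppa, the atrial natriuretic peptide, varied more: controls 2 and 4 read 0.27 and 0.08 and the other 3 from -1.34 to -1.14. The 2 higher members were Kcnj3 at 1.97 ± 0.28 (SD, n = 5) and Bmp10, above background in ventricle alone and at least 1.14-fold higher. Kcnj3 fell to 0.58 after normexp and loess.

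Markers of the pacemaker and conduction tissue were mostly near the pool or below detection. Of 10 genes, 6 were tested, and 3 were shared, 1 was higher and 1 was lower, where 40.3%, 27.3% and 20.6% of all genes tested were. Gja5, the connexin of Purkinje fibres, was shared at -0.02 ± 0.12 (SD, n = 5), and Hcn4, the main pacemaker channel, was not well above background in either channel on any array. Without control 2 or without control 5, the higher member Gjc1 fell just short of the threshold, to 0.98 and 0.97.

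Genes named for skeletal muscle were split. Of 23, 15 were tested, and 8 were higher, 2 lower and 2 shared. Myh1, Myh2, Myh4, Actn3, Mylpf and Myog, which define the fast fibre and its development, were not well above background in either channel on any array. Atp2a1, the calcium pump of fast muscle, was nevertheless 9.43-fold above the pool at 3.28, 3.32, 2.88, 3.18 and 3.52 in controls 1 to 5, and 5.42-fold after normexp and loess. Atp2a2, the cardiac pump gene, was saturated and at least 3.47-fold higher. Neb stood at 2.76 ± 0.41 (SD, n = 5) and Acta1, the skeletal actin that the heart also makes, at 2.70 ± 0.92 (SD, n = 5). After normexp and loess Neb stood at 1.00. Myh8 was saturated in Cy5 on all arrays and read 1.19; sarcomeric heavy chain genes share long stretches of sequence, so its signal is uncertain. Pvalb, the calcium buffer of fast fibres and of interneurons, stood at -3.13 ± 0.11 (SD, n = 5).

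Cells of the vessel wall were on the ventricle side. Of 21 endothelial genes, 17 were higher, 1 was shared, 3 missed both rules and 0 were lower, with a median of 1.65. After normexp and loess the list's median was 0.90, under the threshold of 1. Tcf15, a factor of heart and muscle capillaries, read 3.26, 3.28, 3.10, 3.06 and 3.09 in controls 1 to 5, or 8.93-fold (adjusted p = 8.61e-08, limma), and 4.6-fold after normexp and loess. Meox2, its partner in endothelial fatty acid uptake, stood at 2.87 ± 0.08 (SD, n = 5), and Gpihbp1, which presents lipoprotein lipase on the capillary wall, at 2.31 ± 0.14 (SD, n = 5). Of the general endothelial markers, Tek stood at 2.42 ± 0.12 (SD, n = 5), Egfl7 at 2.11 ± 0.14 (SD, n = 5), Pecam1 at 1.79 ± 0.14 (SD, n = 5) and Cdh5 at 1.42 ± 0.12 (SD, n = 5). Tek fell to 0.90 after normexp and loess. Kdr, the VEGF receptor, was below 0 at -0.99 ± 0.09 (SD, n = 5) without passing the size threshold. Of 12 smooth muscle and pericyte genes, 9 were higher and 0 lower, with a median of 1.44. They were led by Kcnj8 and Abcc9, the subunits of the pericyte potassium channel, at 2.72 ± 0.10 (SD, n = 5) and 2.15 ± 0.30 (SD, n = 5). After normexp and loess Kcnj8 stood at 1.49 and Abcc9 at 1.87.

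Fibroblast genes were higher or shared. Of 16, 9 were higher, 7 were shared and 0 were lower, where 27.3%, 40.3% and 20.6% of all genes tested were. The higher ones included the matrix protein Dpt at 3.00 ± 0.16 (SD, n = 5), the collagen receptor Ddr2 at 2.75 ± 0.24 (SD, n = 5), Ogn at 2.19 ± 0.11 (SD, n = 5) and Lum at 2.08 ± 0.11 (SD, n = 5), with Gsn, an actin-severing protein, at 2.01 ± 0.19 (SD, n = 5) and Postn, a matricellular protein, at 1.81 ± 0.60 (SD, n = 5). The main collagens were shared, with Col1a1 at -0.29 ± 0.42 (SD, n = 5), Col1a2 at 0.17 ± 0.30 (SD, n = 5) and Col3a1 at 0.19 ± 0.49 (SD, n = 5), as was Pdgfra at 0.46 ± 0.08 (SD, n = 5). The list's median was 1.14 in control 1 and 1.84 in control 2, with the other arrays between. After normexp and loess Dpt stood at 1.67, Ddr2 at 1.54, Ogn at 1.86 and Lum at 1.69.

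Blood cell genes were mostly lower, and macrophage genes divided. Of 16 macrophage genes, 9 were lower, 4 higher and 3 shared, with a median of -1.48. Among all genes tested, 20.6% were lower, 27.3% higher and 40.3% shared. Lyve1, a hyaluronan receptor of resident heart macrophages and lymphatic vessels, read 2.36, 3.29, 2.64, 2.98 and 3.00 in controls 1 to 5, or 7.23-fold higher, and 2.6-fold after normexp and loess. Cd163, the haemoglobin scavenger receptor of resident macrophages, was above background in ventricle alone and at least 1.21-fold higher; after normexp and loess it stood at 0.28. F13a1 was higher too, at 1.84 ± 0.36 (SD, n = 5), as was the integrin Itgam at 1.10 ± 0.15 (SD, n = 5). Fcgr3, Mrc1 and Cbr2 were shared. The lower members included Csf1r at -1.94 ± 0.32 (SD, n = 5), Ctss at -3.03 ± 0.71 (SD, n = 5) and Cx3cr1, which read -3.52, -2.09, -3.64, -4.01 and -2.91. The least low value of Cx3cr1 was that of control 2, and the list's median was -0.73 in that mouse and from -1.87 to -1.42 in the others. Of 14 T and NK cell genes, 13 were lower and 0 higher, with a median of -3.34.

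Genes listed for other cell types that a ventricle sample can carry were mostly below the pool. Whether the pooled organs make these genes in cells of another type was not tested. Of 14 erythroid genes, 9 were lower, 1 was higher and 2 were shared, and Epb42 and Rhag, of the red cell membrane, were above background in the pool alone; after normexp and loess they stood at -0.73 and -0.57. Haemoglobin genes are near-identical copies and were close to saturation, so no fold is read from them. Of 8 adipocyte genes, 6 were lower and 1 was higher: Adipoq stood at -2.60 ± 0.47 (SD, n = 5), and at -0.91 after normexp and loess, and Car3 at -5.06 ± 0.13 (SD, n = 5). Ucp1, the uncoupling protein of brown fat, was above background in ventricle on control 1 alone, where it read -1.64 against values from -5.87 to -4.91 in the other 4 mice. Of 6 mesothelial genes, 5 were lower, and Wt1, also made in heart endothelium and epicardium, was higher at 1.54 ± 0.29 (SD, n = 5).

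Beyond the lists, the highest ratios among genes above background in both channels named further muscle genes. After Mhrt came Acyp2, muscle acylphosphatase, at 5.55, 4.55, 4.82, 5.47 and 5.42 in controls 1 to 5, or 35.8-fold and 14.4-fold after normexp and loess, and Tnni3k, the cardiomyocyte kinase that binds troponin I, at 4.67, 4.66, 4.54, 4.96 and 5.06, or 27.5-fold and 14.2-fold after normexp and loess. Trim55, a ubiquitin ligase of the sarcomere, stood at 4.24 ± 0.31 (SD, n = 5), Rnf207, a regulator of cardiac potassium channels, at 4.15 ± 0.14 (SD, n = 5), and Xirp2, a protein of the intercalated disc, at 4.00 ± 0.23 (SD, n = 5). Rbm20, the splicing factor of titin, stood at 3.87 ± 0.22 (SD, n = 5). The set also held Asb5 at 3.89 ± 0.17 (SD, n = 5), Ip6k3 at 3.94 ± 0.52 (SD, n = 5), Lsmem1 at 3.80 ± 0.22 (SD, n = 5) and Lgals4, a galectin known from the gut, at 4.05 ± 0.52 (SD, n = 5). Neat1, the nuclear RNA of paraspeckles, read 3.73, 4.17, 3.64, 3.51 and 4.61. After normexp and loess Trim55 stood at 1.89, Rnf207 at 3.32, Xirp2 at 2.78, Rbm20 at 2.00 and Neat1 at 3.62. With the same processing Asb5 stood at 1.56, Ip6k3 at 1.82, Lsmem1 at 2.42 and Lgals4 at 2.97. The remaining members of the highest 15 were Trdn and the transcripts Gm35438 and 2310002L09Rik.

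Ribosomal protein and proteasome genes, which serve general cell upkeep, were mostly shared. Of 29 ribosomal protein genes, 27 were shared and 2 were lower, with a median of -0.03. The exceptions were Rpl3, which read -1.97, -1.80, -1.94, -1.93 and -1.51, or 3.55-fold lower, and Rps19 at -1.06 ± 0.12 (SD, n = 5); with the spike-in zero Rps19 moved to -0.32. Of 26 proteasome genes, 23 were shared and 1 was higher, Psmc6, an ATPase of the regulatory particle, at 1.39, 1.46, 1.45, 1.45 and 1.41 in controls 1 to 5. Its values lay within 0.1 of each other. The 10 brightest shared genes, among them Tpt1, Rpl37 and Actb, were each saturated in a channel on at least 1 array, so their ratios are only approximate. The sign of the ribosomal median depended on the zero: it was -0.33 after normexp and loess and 0.72 with the spike-in zero.

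At the threshold itself, Tpm1 at 1.0003 was the higher gene nearest to it and Txn2 at 0.9997 just missed it. On the other side Igsf23 at -1.0005 was called and Arrb2 at -0.9990 was not.

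The liver supplied the lowest ratios. All 35 liver genes tested were lower in ventricle, with a median of -5.52 and a range from -9.73 to -1.30. Cyp3a11, the steroid and drug oxidase of hepatocytes, read -9.47, -9.85, -9.65, -9.81 and -9.88 in controls 1 to 5, or 850-fold below the pool (adjusted p = 2.71e-08, limma), and 212-fold after normexp and loess; a second probe gave -4.40, and other Cyp3a genes are close in sequence. Ambp, a plasma protein precursor, read -7.80, -7.75, -7.86, -7.86 and -7.76, or 224-fold below, and had one of the smallest spreads. The smallest distances from 0 belonged to F9, Apoa2, Alb and Tat, from -1.30 to -2.16. Alb, serum albumin, read -1.63, -1.58, -1.73, -1.65 and -1.55 and was among the brightest spots of the array. Over all genes tested, 18 lower genes were saturated in Cy3 on 5 of 5 arrays, so the distances of such genes from 0 are only approximate.

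Kidney genes followed. All 33 tested were lower, with a median of -4.65. Slc12a1, the sodium-potassium-chloride transporter of the loop of Henle, was above background in the pool alone and at least 4.95-fold lower in ventricle. Cdh16, the kidney cadherin, read -5.67, -6.23, -6.18, -6.17 and -6.04 in controls 1 to 5, and Slc5a12, a lactate transporter of the proximal tubule, -6.43, -7.20, -7.07, -6.93 and -6.84. Both were above background in ventricle on all arrays. Nphs1, the slit diaphragm protein nephrin, was the closest to 0 at -1.29 ± 0.27 (SD, n = 5).

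Brain genes were lower with a few exceptions. Of 27 neuronal genes, 24 were lower and 2 were shared, with a median of -3.27. Of 19 glial genes, 17 were lower and 2 were shared, with a median of -3.89. Syt1, the calcium sensor of synaptic vesicles, read -7.67, -8.06, -7.88, -8.53 and -7.55, or 245-fold lower, and 70.6-fold after normexp and loess. Mlc1, of astrocyte endfeet, stood at -6.87 ± 0.26 (SD, n = 5), and Cldn11, the claudin of myelin, was above background in the pool alone and at least 15.4-fold lower. The shared neuronal genes were Snap25, at 0.83 ± 0.15 (SD, n = 5), and Th, the catecholamine enzyme of sympathetic nerves, at 0.50 ± 0.07 (SD, n = 5); the shared glial genes were Ermn and Mog.

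Spleen and B cell genes were lower in 13 of 16 tested, with a median of -3.51. Ms4a1, the B cell antigen CD20, read -5.73, -5.86, -5.82, -6.23 and -6.00 in controls 1 to 5, or 60.9-fold lower, and 17.7-fold after normexp and loess. Cd79b, a part of the B cell receptor, stood at -5.13 ± 0.17 (SD, n = 5) and the follicle chemokine Cxcl13 at -5.14 ± 0.25 (SD, n = 5). Fcer2a and Cd37 were shared, and Cd22 was higher at 1.07 ± 0.09 (SD, n = 5). S100a8, a calprotectin subunit of neutrophils that was in no list, read -8.03, -7.74, -8.49, -8.79 and -8.73, among the 15 lowest of all.

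Detection gave a second view, in which absence is only a failure to exceed background. Of the 32585 genes or transcripts, 17927 or 55.0% were above background in both channels on all arrays. In ventricle alone, on 5 arrays in Cy5 and 0 in Cy3, were 975 or 2.99%, and in the pool alone 724 or 2.22%. In neither channel on any array were 7726 or 23.7%, and the remaining 5233 were mixed. Of genes with a symbol, 338 were in ventricle alone and 516 in the pool alone.

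**Figure D4:**
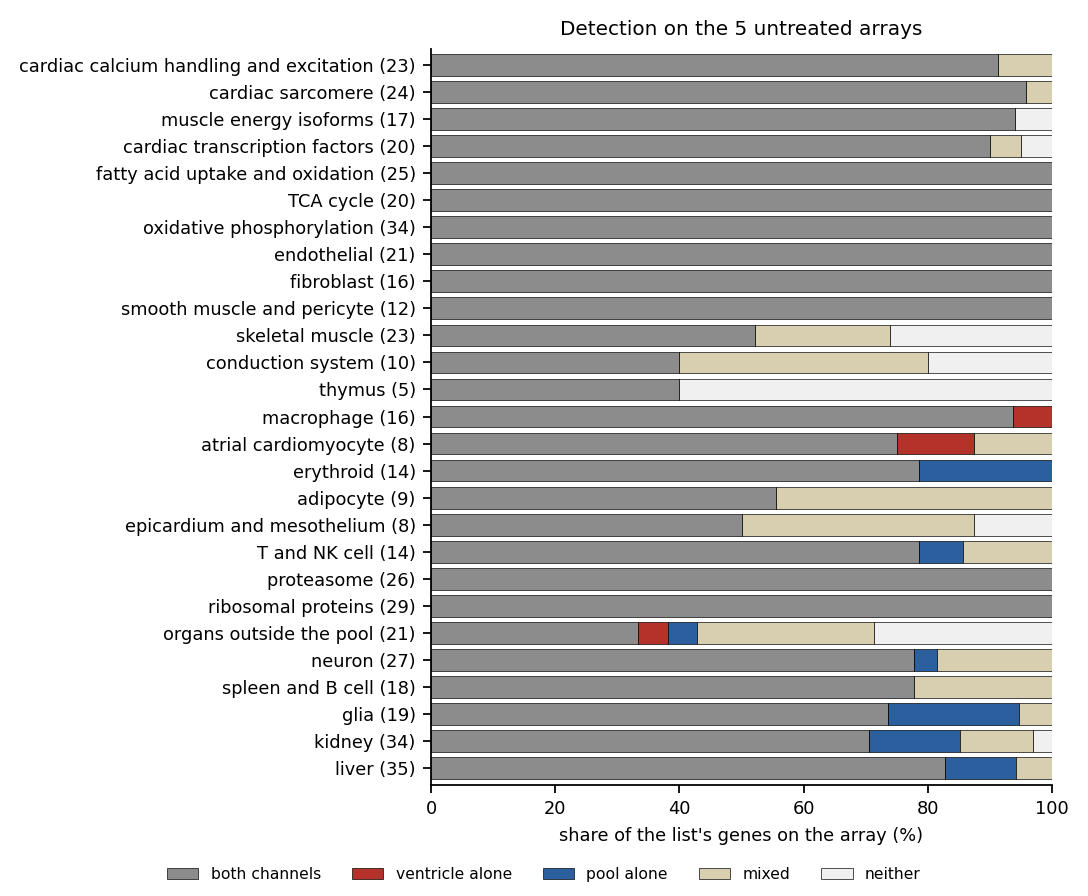
Share of each list's genes (horizontal axis, percent; number of genes in brackets) by detection on the 5 untreated arrays: above background in both channels on all arrays, in ventricle alone, in the pool alone, in neither, or mixed. The lists for fatty acid oxidation, TCA cycle, oxidative phosphorylation, endothelium, fibroblasts, smooth muscle, ribosomal proteins and proteasome are wholly in both channels, pool-alone genes occur in the liver, kidney, brain, erythroid, T cell and outside-organ lists, and genes in neither channel are most frequent in the thymus, outside-organ and skeletal muscle lists.

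Pool-alone genes bright enough to set a bound came from liver, brain and kidney. Elovl2, a fatty acid elongase of liver, was at least 24.3-fold lower in ventricle, and Ugt2b34 and Cyp3a25, liver conjugation and oxidation enzymes, at least 22.2-fold and 20.2-fold. Zic1, a factor of the cerebellum, was at least 25.3-fold lower by its brighter probe, and a dimmer probe read -0.42. Cnr1, the cannabinoid receptor, and Scg2, a protein of neurosecretory granules, were at least 14.9-fold and 15.2-fold lower. Among the organ lists, 4 of 35 liver genes, 5 of 34 kidney genes, 4 of 19 glial genes and 1 of 27 neuronal genes were in the pool alone. For liver, 29 of 35 genes gave a ventricle signal above background on all 5 arrays.

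Ventricle-alone genes were dimmer, and their bounds were small. The brightest with a symbol was Rbmxl2, at least 2.13-fold higher in ventricle, then Ptprm, a phosphatase of endothelial junctions, at least 1.66-fold. Pirt, a membrane protein of sensory neurons, and the long noncoding RNA Crnde were at least 1.85-fold and 1.83-fold higher. Of the 12 brightest, all except Rbmxl2 fell under the threshold of 1 after normexp and loess, to between 0.61 and 0.90. None of the 161 tested genes of the heart muscle and energy lists was in ventricle alone. Of 21 genes of organs outside the pool, such as testis, pancreas, lung and retina, 6 were in neither channel, 1 was in ventricle alone and 1 in the pool alone.

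The study's treatment is aldosterone, the adrenal steroid that controls sodium, so the untreated level of its receptors and of the renin-angiotensin genes is given here from a list put together later. Of 24 genes, 19 were tested, and 9 were lower, 8 shared and 1 higher, where 20.6%, 40.3% and 27.3% of all genes tested were. Nr3c2, the mineralocorticoid receptor, read 0.55, 0.48, 0.18, 0.47 and 0.48 in controls 1 to 5 and was shared with the pool. Nr3c1, the glucocorticoid receptor, was shared at -0.09 ± 0.06 (SD, n = 5). Hsd11b2, the enzyme that shields the kidney receptor from glucocorticoids, was lower at -3.20 ± 0.33 (SD, n = 5), with a ventricle signal above background on 1 array. Hsd11b1, which regenerates glucocorticoid, was lower at -2.57 ± 0.22 (SD, n = 5), and Cyp11b2, the aldosterone synthase, was in neither channel on any array.

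Known target genes of these receptors lay near the pool or away from it in either direction. Sgk1, the kinase that raises sodium channel number, read -0.12, -0.31, 0.26, -0.44 and 0.10, Tsc22d3 stood at 0.12 ± 0.21 (SD, n = 5), Fkbp5 at -0.05 ± 0.12 (SD, n = 5) and Per1 at 0.17 ± 0.09 (SD, n = 5), all shared. Zbtb16 was the higher member at 1.61 ± 0.43 (SD, n = 5), and Lcn2 was lower at -2.94 ± 0.11 (SD, n = 5). The channel subunits of the kidney were lower, with Scnn1a at -3.82 ± 0.24 (SD, n = 5) and Scnn1b above background in the pool alone. Agt, angiotensinogen, was lower at -1.53 ± 0.07 (SD, n = 5), as was Ren1 at -1.49 ± 0.14 (SD, n = 5), while Ace was shared at 0.61 ± 0.13 (SD, n = 5) and the receptor gene Agtr1a at 0.48 ± 0.32 (SD, n = 5). Of the natriuretic peptides, which oppose this system, Nppb was higher and read 2.13, 1.00, 2.58, 1.74 and 0.90. Controls 2 and 5 gave its lowest values. Npr1, the receptor of both cardiac peptides, was above background in ventricle alone and at least 1.48-fold higher.

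Some genes varied widely between the 5 mice. Of the 17927 genes in both channels, 781 had an SD over 0.5 and 111 an SD over 1. Trim12a, a TRIM family gene, read -4.27, -4.45, -4.57, 0.69 and 0.59 in controls 1 to 5: controls 1, 2 and 3 lay near -4 and controls 4 and 5 above 0, with no value between. Its mean did not pass the test against 0 (adjusted p = 0.064, limma), and without control 4 or control 5 it did, at -3.17 and -3.15. 5830417I10Rik read -3.35, -3.64, 0.69, 1.49 and -3.21, with controls 3 and 4 above 0 and the other 3 below -3; it passed the test only without control 4, at -2.38. Gstm5, a glutathione transferase, read 3.63, -0.77, 0.93, 3.26 and -0.82, with controls 1 and 4 above 3. Car8 read -0.22, -0.03, 2.66, 3.07 and -0.38, with controls 3 and 4 above 2 and the rest near 0. Tescl read 2.23, 1.40, -3.09, 2.62 and 2.44 and Hamp2, a hepcidin gene, 2.15, 2.78, -2.16, 2.25 and 3.10; in both, control 3 alone was below 0, and without it the means rose to 2.17 and 2.57 and passed the test.

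Other members of the 12 genes of largest SD shared another order of the mice. Igtp, an interferon-induced GTPase, read -1.89, 1.81, -0.17, -3.07 and -1.62 in controls 1 to 5, with control 2 the highest and control 4 the lowest. F830016B08Rik, of the same family, read -1.29, 2.04, -0.88, -3.75 and -1.41, Gm4841 read -2.61, 1.41, -2.45, -4.54 and -3.68 and Vmn1r65 read -1.07, 1.88, -0.75, -3.10 and -1.38. Each had control 2 as the highest and control 4 as the lowest. Igtp, F830016B08Rik and Vmn1r65 missed the test with all 5 arrays and, among the fits without 1 array, passed it as lower in ventricle only without control 2, at -1.69, -1.83 and -1.57. Gm4841 passed the test as lower with all 5 arrays, at -2.37, and missed it without control 1, 3, 4 or 5, at -2.32, -2.36, -1.83 and -2.05. A wider list of 32 interferon-inducible genes was then put together, after these values had been seen, and is given with no test. Control 2 was the highest of the 5 mice in 30 of the 32 genes, where it was the highest in 22.1% of all genes in both channels. The list median was -0.13 in control 2, -1.10 in control 3, -1.44 in control 5, -1.94 in control 4 and -1.95 in control 1. Controls 1 and 2 were on the same slide, and had the lowest and the highest list median among the 5, in that order. Gbp2 read -1.69, 1.01, -0.07, -1.31 and -0.55, and the chemokine Cxcl9 read -3.82, -0.92, -2.85, -4.26 and -3.63. Macrophage genes were also least low in control 2, as given above; their part in this difference was not tested.

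**Figure D5:**
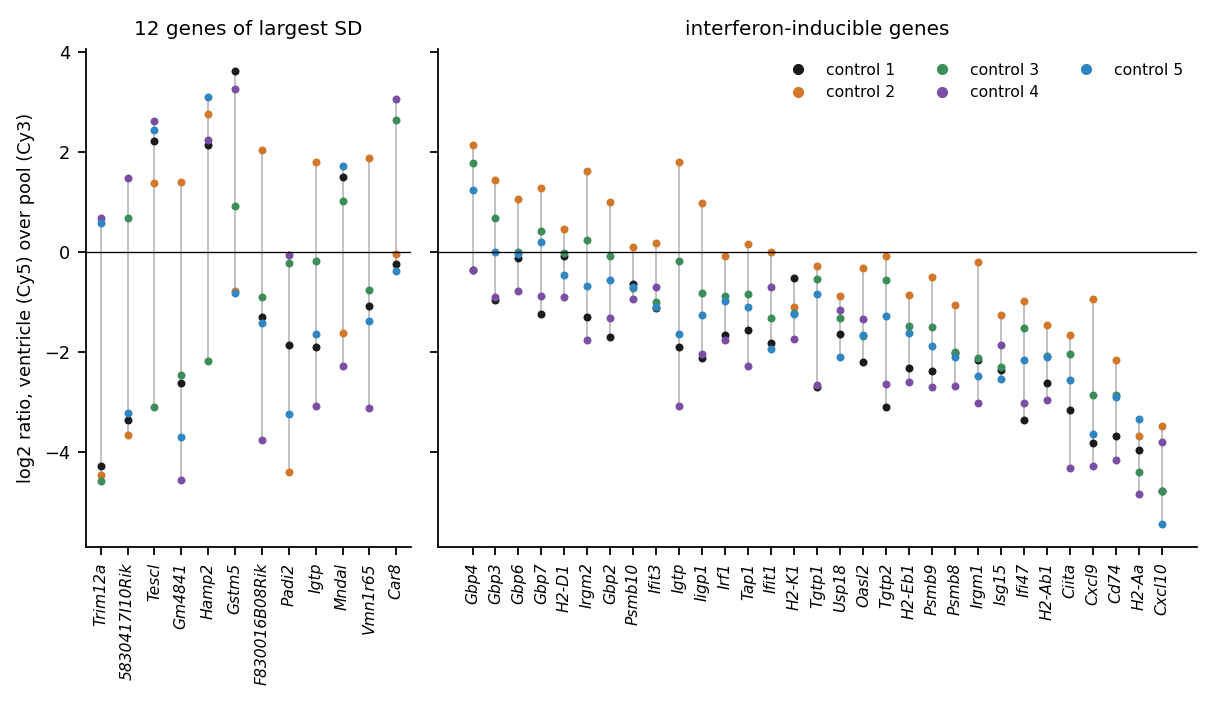
Log2 ratio of ventricle over pool on each untreated array (points, 1 colour per mouse; grey line, range) for the 12 genes of largest SD (left) and 31 of the 32 interferon-inducible genes, a list chosen after their values had been seen (right). Control 2 is the highest in 29 of the 31 genes drawn on the right, and Trim12a separates controls 4 and 5 from the other 3 mice.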

How the data were processed

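RNA of 5 untreated ventricles (Cy5) was hybridised with a pooled tissue reference (Cy3) to Agilent 2-colour arrays, 1 array per mouse. Per the file headers, the scans were read by Feature Extraction 10.7.3.1 of Agilent. The value table deposited by the authors holds log2 ratios, which matched the log2 of Cy5 over Cy3 processed signals; its direction was settled by that match. The deposited scanner files hold the log10 ratio and the channel intensity of each spot, already background-subtracted and dye-normalized, per the file headers. Of 39429 probes, 26581 were named for 20144 genes through accessions of a RefSeq table; 12848 were not named and enter the counts as transcripts.

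The brightest probe stood for each gene. Genes well above background in either channel on at least 4 of 5 arrays were fitted with limma 3.58.1 in R 4.3.3 (intercept, eBayes, Benjamini-Hochberg, two-sided), a procedure tested on simulated data. A probe not well above background in a channel on any array, or saturated in Cy5 but not in Cy3 on all arrays, has only a bound. The bound is the smaller of those from normexp (offset 50), loess and Aquantile values with local backgrounds as recorded or with stray ones replaced. No bound was made for saturation in Cy3, which 18 lower genes showed on 5 of 5 arrays. Promoter windows were searched on both strands for the 5 motifs named in the results.

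The members and lists were chosen with earlier results of these data known. Named genes were the 15 highest and 15 lowest, the 12 brightest of each channel alone, 4 per list farthest from 0, isoform families, the 10 brightest shared, the 12 of largest SD and those nearest to 1 and -1. Other list members were named after their values were seen, and the aldosterone, natriuretic, interferon, clock and sex-linked lists were made then. The array count limits the precision. The mice given aldosterone were not analysed here. Some genes covered by these rules are not reported here; they stay in the counts and medians.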

Additional observations from a re-analysis of the deposited data

Results flagged for a closer look

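Of 267 list medians and named genes, 11 had 1 array far from the other 4 by Dixon's criterion, which chance gives for about 1 in 20. Control 3 was low in 4: Trdn read 3.71 against 4.03 to 4.07 in the others, Cox8b 1.77 against 2.13 to 2.23, Tescl -3.09 against 1.40 to 2.62, and Hamp2 -2.16 against 2.15 to 3.10. Control 1 was high for Nebl at 3.33 against 2.68 to 2.84, and for Ucp1 at -1.64 against -5.87 to -4.91, and low for Pgam2, muscle phosphoglycerate mutase, at 1.90 against 2.16 to 2.26. Control 2 was high for Acadl at 2.64 against 2.13 to 2.25. It was low for Pygl at -3.75 against -2.28 to -2.13, and for Ugt2b5, a liver glucuronosyltransferase whose ventricle signal passed background on 1 array, at -9.79 against -8.27 to -7.69. Control 4 was high for Myl2, a saturated spot, at 1.50 against 1.15 to 1.22.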

How the results depend on the processing

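The zero, the background correction and the minimum size moved the counts by more than 1.5 times. No named gene called higher or lower changed sign under any setting run, while some genes that were not called did. The balance of calls turned, from more higher than lower genes to more lower ones, after normexp and loess, without background correction, with stray backgrounds replaced, when centred on the median of all genes and with a minimum of 2. The 6071 higher genes became 1626 after normexp and loess, 1710 without background correction, 1729 with stray local backgrounds replaced, 11702 with the spike-in zero, 12098 with no minimum size and 1583 with a minimum of 2. The 4593 lower genes became 2384 with normexp and median centring, 3051 when both channels had to be above background on 5 arrays, and 7562 with no minimum size. Shared genes became 4920 with the spike-in zero. Ventricle-alone and pool-alone genes became 1692 and 1088 when 4 arrays sufficed and 1 was allowed, and 328 and 319 with the scanner's positive-and-significant marks, which left 2758 genes in neither channel. Leaving out each array gave 5764 to 6017 higher, 4474 to 4602 lower and 8611 to 8827 shared genes, and 991 to 1307 ventricle-alone, 734 to 869 pool-alone and 7848 to 8484 neither genes. The spike-in zero, the replaced backgrounds, the omission of controls 2 and 5, and 3 other settings were chosen after seeing the data. Of 240 named genes, 194 kept their call after normexp and loess, 38 lost it and 8 gained one; the cause was not tested. The slide as a random block was not run because its correlation could not be estimated with 4 slides for 5 arrays; averaging the arrays of the shared slide gave 6015 higher and 4601 lower. No paired analysis was possible because a single group was compared with the reference within each array. Dim signals in either channel and saturation in Cy5 or Cy3 limit the ratios at both ends.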

Other observations

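Genes of organs that the labels do not place in the pool were also measured. Pnlip, pancreatic lipase, read -6.00, -6.13, -5.82, -6.46 and -6.09 in controls 1 to 5, or 68.7-fold below the pool and 18.1-fold after normexp and loess, and Cpa1 and Cela2a, pancreatic digestive enzymes, stood at -4.10 ± 0.12 (SD, n = 5) and -4.05 ± 0.35 (SD, n = 5). All 3 were above background in both channels on every array. Sftpc, lung surfactant protein C, stood at -4.17 ± 0.30 (SD, n = 5) with a ventricle signal on 1 array, and at -1.57 after normexp and loess. Of the testis genes, Prm2 was shared at -0.13 ± 0.10 (SD, n = 5), and Pgk2 was above background in ventricle alone at 0.94 ± 0.28 (SD, n = 5).

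In a list of clock genes put together after the values had been seen, 5 of 15 tested were higher, 1 was lower and 8 were shared, where 27.3%, 20.6% and 40.3% of all genes tested were. Per2, a repressor of the clock, read 2.43, 2.45, 2.79, 2.15 and 2.43, and Arntl, an activator, read -1.35, -2.25, -0.35, -1.45 and -1.65. The times of tissue collection were not used here.

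Genes of the Y chromosome were higher in ventricle, which the labels give as male: Eif2s3y stood at 2.99 ± 0.11 (SD, n = 5) and Ddx3y at 2.00 ± 0.05 (SD, n = 5). Xist, the noncoding RNA of the inactive X chromosome, was not well above background in ventricle on any array and was above background in the pool on 4.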
